A study of Mus musculus with 4 samples.

Results

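Axl, Mertk, Tyro3, Gas6 and Pros1, the 3 TAM receptors and their 2 ligands, were examined for chromatin accessibility in mouse microglia with and without the transcription factor IRF8. All accessible regions overlapping the gene bodies and 10 kb on either side were taken (GRCm38, GENCODE M21 gene models), which gave 76 of the 155546 regions of the genome: 33 at Mertk, 15 at Axl, 13 at Gas6, 9 at Pros1 and 6 at Tyro3. The regions were selected on the presence of a deposited peak, and the genes were chosen by their pathway with earlier pileup ratios of these libraries known, so the differences below are descriptions and carry no test. The study assayed open chromatin by ATAC-seq, in which the Tn5 transposase cuts accessible DNA, in FACS-sorted, untreated microglia of 3-month-old C57BL/6 mice. There were 2 WT and 2 IRF8KO libraries, and the labels describe the mutant group only as IRF8KO, without naming the allele. The labels speak of a brain of each genotype and do not say that the replicates came from separate animals, so the spread between them may be technical. With 2 libraries against 2, an exact two-sided permutation test cannot go below p = 0.33.

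TAM receptors are receptor tyrosine kinases on phagocytes. Their ligands, the vitamin K-dependent proteins Gas6 and protein S (encoded by Pros1), bind phosphatidylserine on dying cells with one end and the receptors with the other, and so bridge the phagocyte to its target. In the brain, microglia use Mertk and Axl to clear dead cells and cell fragments. Mertk is regarded as the receptor of resting tissue macrophages, and Axl as one induced in inflamed or interferon-exposed cells. IRF8 binds DNA poorly alone and pairs with the ETS factor PU.1 at composite elements in macrophages.

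At Axl, accessibility was lower in both IRF8KO libraries than in both WT libraries at 6 of the 8 regions that had a peak in all 4 libraries, higher at 0, and the region near its internal start site was 3.06-fold lower. At Mertk, 5 of 16 such regions were lower and 5 were higher, while the start site had a mean of 2.11 in both genotypes, a ratio whose direction varied with the scaling. With libraries scaled to equal medians, 6 were lower and 0 higher at Axl, and 4 lower and 10 higher at Mertk. At Axl 5 were lower by fold enrichment over local background, and 5 when all summits in a region were summed. The difference in pattern between the 2 receptor genes was not tested. Pros1 was lower at its start, where the groups overlapped under median scaling and by fold enrichment, and at 2 first-intron regions, Gas6 held both directions, and the 2 such regions at Tyro3 overlapped between genotypes. Of the 76 regions, 33 were called in all 4 libraries at −log10 q of 2 or more (against 31% genome-wide) and 40 had a deposited peak of any strength in all 4 (against 37.6%). Over the 5 genes, 17 of these 40 were lower in both IRF8KO libraries (42.5%, against 37.1% of 58550 such regions genome-wide), 8 were higher (20%, against 11.9%) and 15 overlapped. Differences of 1.5-fold or more made up 13 of the 17 (32.5% of 40, against 26% genome-wide) and 6 of the 8 (15%, against 9.19%).

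Levels are given as the pileup (the depth of extended cut sites) at the highest summit in a region, per 1000000 tags. The files held 46948938 and 48896408 tags in WT and 78793572 and 66224648 in IRF8KO, a ratio of 1.51 between the group means, and the tag size was 50 bp in WT and 49 bp in IRF8KO. Depth and tag size followed genotype, so their effects and that of genotype cannot be told apart. The median region with a peak in all 4 libraries had a log2 IRF8KO over WT ratio of -0.28. That median was -0.08 without IRF8KO replicate 1, -0.61 without IRF8KO replicate 2, -0.12 without WT replicate 1 and -0.37 without WT replicate 2. IRF8KO replicate 1 stood apart, with a median level of 0.444 over these regions against 0.614 to 0.767 in the other libraries. When libraries were scaled to equal medians instead, 29.7% of regions genome-wide were lower and 29.5% higher, and at the 5 genes 13 were lower and 17 higher.

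The check of the deleted gene gave no information, because the labels do not say which part of Irf8 was removed: its promoter level, the highest summit within 1 kb of an annotated start, was 2.07 and 1.49 in WT and 0.863 and 1.36 in IRF8KO, and 10 of 14 regions at the locus had a peak in all 4 libraries. The summed promoter level of 6 microglia markers was 14.6 to 20.2 in WT and 7.65 to 13.0 in IRF8KO, with Sall1, a microglia identity factor, at 0 and 0.151 in IRF8KO. That of 5 border macrophage markers was 1.92 to 2.41 in WT and 3.46 to 5.54 in IRF8KO, and Cd163, a scavenger receptor of those cells, had no promoter peak in WT against 0.520 and 1.10 in IRF8KO. Of the same list, Cbr2 (1.45 and 1.17 in WT, 1.08 and 1.27 in IRF8KO) and Lyve1 (0.170 and 0.143 against 0 and 0.151) were not higher. Monocyte markers summed to 1.80 to 2.17 in WT and 0.673 to 0.997 in IRF8KO with Ccr2 at 0 in all 4 libraries. Nearly all of that sum was Vcan (2.17 and 1.66 against 0.673 and 0.997). Neutrophil markers summed to 0.614 to 1.36 and 0.178 to 0.453 with S100a9 at 0, and the difference lay mostly in Ltf (0.958 and 0.491 against 0 and 0.196), while S100a8 overlapped (0.234 and 0.123 against 0.178 and 0.257). Endothelial markers summed to 5.62 to 6.92 in WT and 1.43 to 2.20 in IRF8KO, mostly through Cdh5 (5.86 and 4.81 against 0.647 and 0.936), while Pecam1 was higher in both IRF8KO libraries (0.383 and 0.286 against 0.533 and 0.876). Astrocyte markers summed to 0.532 to 1.09 and 1.10 to 1.98 with Aqp4 at 0. Of these, Aldh1l1 was higher in both IRF8KO libraries (0.405 and 0.205 against 0.850 and 1.53) and Gfap lower (0.426 and 0.327 against 0.254 and 0.287). Neuronal markers summed to 1.02 to 1.10 and 0.589 to 0.736. The B and T cell genes Cd79a, Cd3e and Cd3g were at 0 throughout. The part of such shifts in the cells sorted in the results at the TAM genes was not tested, and fewer cells of a type and less open chromatin per cell cannot be told apart in bulk libraries.

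**Figure D1:**
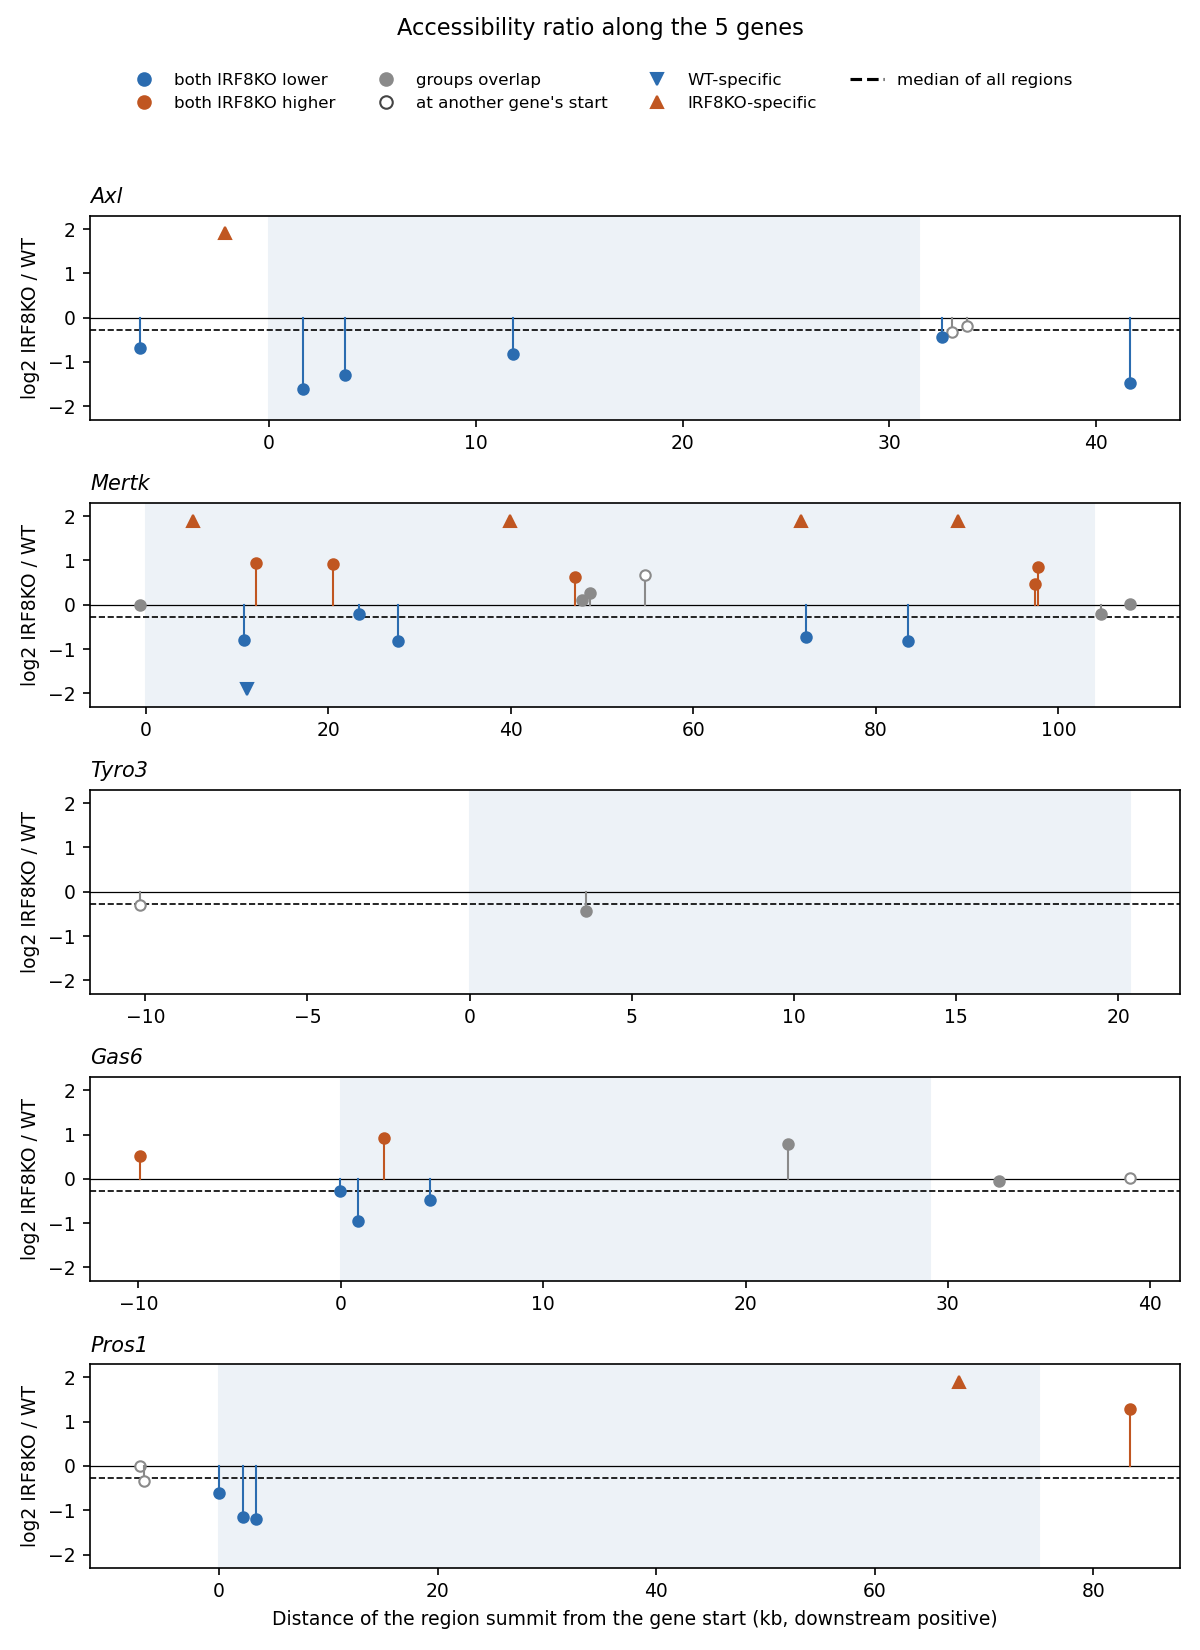
Log2 ratio of IRF8KO over WT mean pileup per 1000000 tags (vertical axis) against the distance of each region's summit from the gene start in kb (horizontal axis, shading marks the gene body). Stems are regions with a peak in all 4 libraries, triangles at fixed heights are genotype-specific regions with no ratio, and the dashed line is the median of all regions (-0.28); the Axl stems lie below 0 throughout, the Mertk stems on both sides.

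Axl encodes a TAM receptor whose only high-affinity ligand is Gas6. Its gene lies on the minus strand at chr7:25757273-25788705. The region with the largest fall of the 40 was chr7:25786987-25787274, in intron 2, 1.63 kb from the main start, beside the annotated start (25787066) of a transcript with a retained intron. It had 0.958 and 0.614 in WT and 0.241 and 0.272 in IRF8KO. Both IRF8KO libraries lay far below both WT libraries: the means were 0.786 ± 0.244 and 0.256 ± 0.0217 (SD, n = 2 each), a log2 ratio of -1.62. By fold enrichment over the local background of each library the log2 ratio was -1.01.

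The intron 4 region of Axl, chr7:25784892-25785115, had 0.596 and 0.307 in WT and 0.140 and 0.227 in IRF8KO. There was no overlap, with a log2 ratio of -1.30 (-0.70 by fold enrichment). The strongest region inside the gene, chr7:25776686-25777141 in intron 6, had 5.15 and 3.60 in WT and 1.83 and 3.14 in IRF8KO. Here IRF8KO replicate 2 came close to WT replicate 2, the log2 ratio was -0.82, and by fold enrichment it was -0.25 with overlapping groups. Upstream of the gene, chr7:25794813-25795150 had 0.596 and 0.552 in WT and 0.267 and 0.453 in IRF8KO, again without overlap, a log2 ratio of -0.67.

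At the main start of Axl itself, chr7:25788554-25788907 had 0.277 and 0.470 in WT and 0.140 in IRF8KO replicate 1, and IRF8KO replicate 2 had no deposited peak. The peaks passed −log10 q of 2 in both WT libraries only. Against this direction, upstream of the gene (-2.15 kb from its start), chr7:25790684-25790934 had 0.292 and 0.242 in IRF8KO and no deposited peak in either WT library. It was the 1 genotype-specific region at Axl, and its peaks had −log10 q of 9.61 and 5.53.

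The 3′ side of the Axl window is shared with Hnrnpul1, which encodes an RNA-binding nuclear protein. The highest region of the window, chr7:25754472-25755477 at the Hnrnpul1 promoter, had 6.56 and 4.77 in WT and 4.11 and 5.77 in IRF8KO, so the groups overlapped. By contrast chr7:25746955-25747418, inside the Hnrnpul1 gene body and across the edge of the window, had 1.21 and 0.757 in WT and 0.190 and 0.513 in IRF8KO. Its groups did not overlap, with a log2 ratio of -1.49, which was -2.37 without IRF8KO replicate 2, -0.94 without IRF8KO replicate 1 and -0.99 by fold enrichment. Of the 8 Axl regions with a ratio, the 2 that overlapped both lay within 1 kb of the Hnrnpul1 start. The other 6 were lower in both IRF8KO libraries, under median scaling too, while 5 were lower by fold enrichment and 5 with summed summits. Among the 6, chr7:25756031-25756413 lay 1382 bp from the Hnrnpul1 start and 7925 bp from the nearest Axl start. Its log2 ratio was -0.43, and -0.01 with overlapping groups when summits were summed. The median log2 ratio of the 8 was -0.75.

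The sequences below show the 2 Axl introns with the largest falls and the region open only in IRF8KO, as GRCm38 plus strand around the summit. Capitals mark matches to the motifs searched: in intron 2 the interferon-stimulated response element (ISRE, a pair of GAAA with any 2 bases between) and the nuclear receptor half-site AGGTCA, in intron 4 a STAT match (TTCNNNGAA), the half-site and the PU.1 match GAGGAAGT, and upstream the CEBP match TTGCNNAA. The intron 2 window is cut at the retained-intron exon.
Axl intron 2, chr7:25787067-25787171: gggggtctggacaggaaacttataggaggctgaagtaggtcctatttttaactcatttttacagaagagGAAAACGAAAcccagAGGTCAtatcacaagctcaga
Axl intron 4, chr7:25784921-25785121: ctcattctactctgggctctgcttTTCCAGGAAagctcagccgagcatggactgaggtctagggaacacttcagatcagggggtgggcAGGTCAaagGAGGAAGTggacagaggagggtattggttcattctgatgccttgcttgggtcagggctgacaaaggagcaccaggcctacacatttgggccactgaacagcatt
Axl upstream, IRF8KO-specific, chr7:25790760-25790960: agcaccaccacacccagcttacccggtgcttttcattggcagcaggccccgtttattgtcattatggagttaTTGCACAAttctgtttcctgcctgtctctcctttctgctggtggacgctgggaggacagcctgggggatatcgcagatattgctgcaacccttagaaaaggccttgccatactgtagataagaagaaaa

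**Figure D2:**
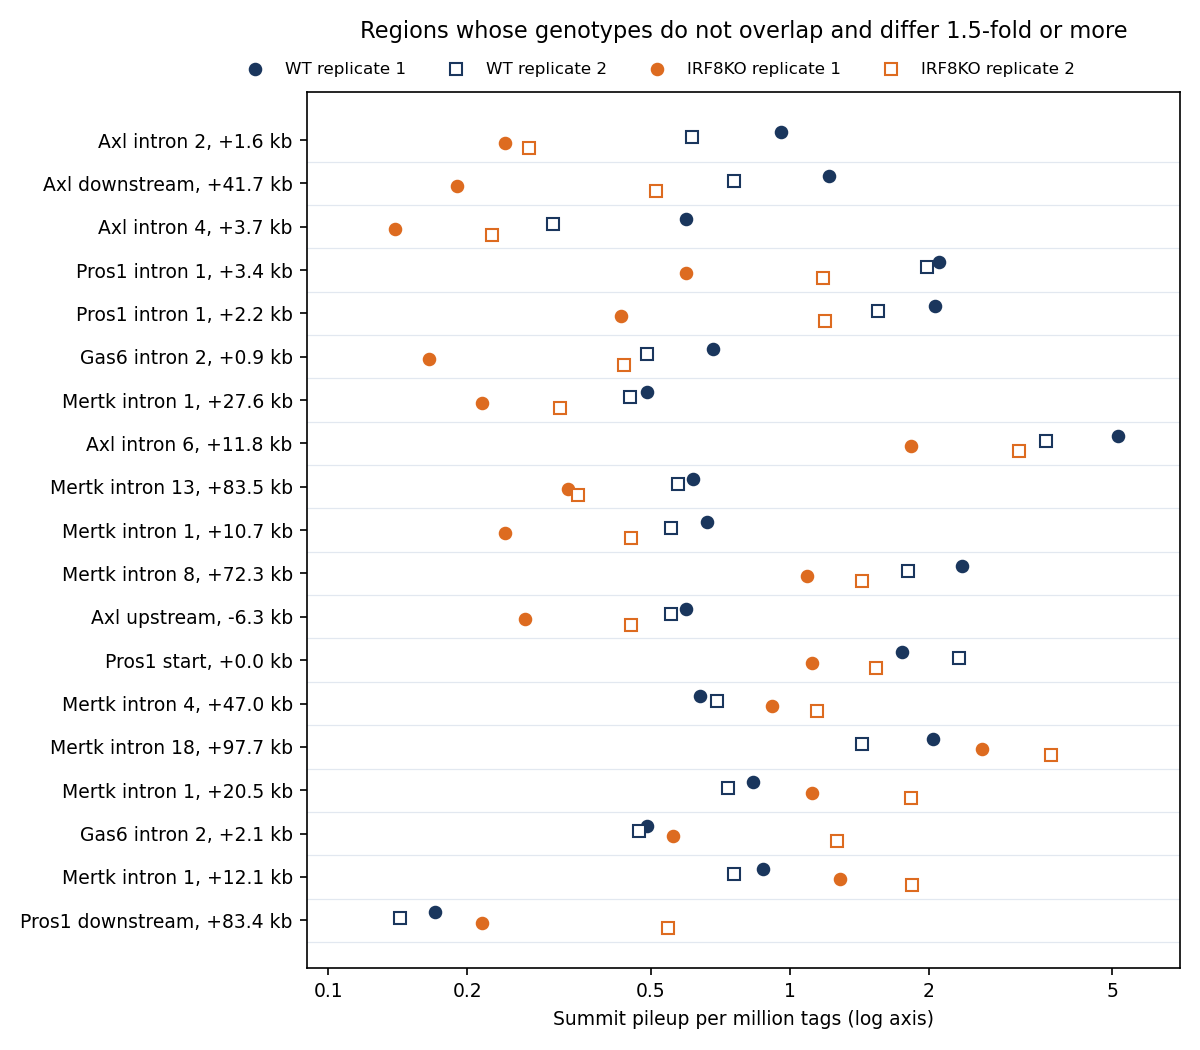
Summit pileup per 1000000 tags (log axis) in each library for the 19 regions whose genotypes did not overlap and whose means differed 1.5-fold or more, named by gene, place and distance from the gene start. WT is dark blue and IRF8KO orange; the 13 upper rows are lower in IRF8KO, the 6 lower rows higher, and IRF8KO replicate 1 is the lowest library in each of the 13.

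Mertk encodes the TAM receptor best known for the clearance of dead cells by resting macrophages, and it spans chr2:128698956-128802894 on the plus strand. Its start region, chr2:128698153-128699290, had 2.26 and 1.96 in WT and 1.84 and 2.39 in IRF8KO. Libraries of the genotypes interleaved and the log2 ratio was 0.00, though under median scaling both IRF8KO libraries were higher (0.30), and with summed summits the ratio was -0.41 with overlapping groups. The region with the highest mean over the 4 libraries, chr2:128806469-128806967 downstream of the gene, likewise overlapped, with 2.73 and 2.25 in WT and 2.37 and 2.69 in IRF8KO, and under median scaling it too was higher in both IRF8KO libraries (0.34).

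Intron 1 of Mertk held neighbouring regions with ratios in opposite directions within 2 kb. The first, chr2:128709454-128709759, had 0.660 and 0.552 in WT and 0.241 and 0.453 in IRF8KO, a log2 ratio of -0.80. The next, chr2:128709928-128710200, had 0.405 and 0.307 in WT and no deposited peak in either IRF8KO library. It was the 1 WT-specific region of the 5 genes (1.32% of 76 regions, against 5.58% genome-wide). The third, chr2:128710664-128711238, had 0.873 and 0.757 in WT and 1.28 and 1.84 in IRF8KO. Both IRF8KO libraries stood above both WT libraries there, with means of 0.815 ± 0.0824 and 1.56 ± 0.396 (SD, n = 2 each) and a log2 ratio of 0.94.

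Further along intron 1, chr2:128719281-128719717 was also higher, with 0.831 and 0.736 in WT and 1.12 and 1.83 in IRF8KO. Its log2 ratio was 0.91, and 2.04 when all summits in the region were summed. In the same intron chr2:128726473-128726692 was lower, with 0.490 and 0.450 in WT and 0.216 and 0.317 in IRF8KO. These groups did not overlap and the log2 ratio was -0.82.

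In the middle of Mertk, the intron 4 region chr2:128745842-128746151 had 0.639 and 0.695 in WT and 0.914 and 1.15 in IRF8KO, higher in both. The log2 ratio was 0.63, with 1.40 when summits were summed and 0.37 by fold enrichment. The intron 8 region chr2:128770996-128771639, at the start (128771313) of a Mertk transcript without a coding sequence, was lower, with 2.36 and 1.80 in WT and 1.09 and 1.43 in IRF8KO. Group means were 2.08 ± 0.399 and 1.26 ± 0.243 (SD, n = 2 each), a log2 ratio of -0.72.

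Near the 3′ end, the intron 13 region chr2:128782078-128782602 had 0.618 and 0.573 in WT and 0.330 and 0.347 in IRF8KO. Replicates lay close together and the groups far apart, with a log2 ratio of -0.81, which was -0.17 when summits were summed. In intron 18, the last named region of the gene body, chr2:128796504-128796975, had 2.04 and 1.43 in WT and 2.61 and 3.68 in IRF8KO. It was the strongest of the higher Mertk regions, with means of 1.74 ± 0.434 and 3.15 ± 0.757 (SD, n = 2 each) and a log2 ratio of 0.86.

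Mertk held 4 of the 6 IRF8KO-specific regions of the 5 genes (7.89% of 76 regions, against 3.86% genome-wide). They lay in intron 1 (chr2:128704083-128704351, 0.190 and 0.302), intron 4 (chr2:128738712-128738994, 0.216 and 0.438), intron 8 (chr2:128770660-128770835, 0.178 and 0.227) and intron 15 (chr2:128787920-128788132, 0.152 and 0.332). The level was above 0.128 and 0.123, the lowest of any deposited peak in WT replicates 1 and 2, in each of these 8 values, but their peaks were weak, with pileups of 12 to 29. At −log10 q of 5, only the intron 4 region of Mertk and the upstream region of Axl remained IRF8KO-specific, and the WT-specific region was lost. The median log2 ratio of the 16 Mertk regions with a ratio was 0.06. It was -0.13 without IRF8KO replicate 2, 0.24 without IRF8KO replicate 1 and -0.03 by fold enrichment. The count of 5 higher Mertk regions was 10 without IRF8KO replicate 1 and 9 without WT replicate 1. Genome-wide the higher share rose too, from 11.9% to 33.9% without IRF8KO replicate 1 and 23.96% without WT replicate 1.

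The Mertk windows printed here are the lower and higher neighbours in intron 1, the higher region in intron 4 and an IRF8KO-specific region in intron 15. Capitals mark an ETS-IRF composite match (GGAA and GAAA with any 2 bases between) in the first, a RUNX match (TGTGGTT, here on the minus strand) in the second, 2 RUNX and 2 CEBP matches in the third, and a CEBP and an AP-1 match (TGANTCA) in the fourth.
Mertk intron 1, lower, chr2:128709581-128709781: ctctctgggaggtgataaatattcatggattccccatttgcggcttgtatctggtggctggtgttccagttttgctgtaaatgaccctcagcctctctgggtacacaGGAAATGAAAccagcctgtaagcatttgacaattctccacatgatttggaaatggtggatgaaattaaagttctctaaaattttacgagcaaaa
Mertk intron 1, higher, chr2:128710912-128711112: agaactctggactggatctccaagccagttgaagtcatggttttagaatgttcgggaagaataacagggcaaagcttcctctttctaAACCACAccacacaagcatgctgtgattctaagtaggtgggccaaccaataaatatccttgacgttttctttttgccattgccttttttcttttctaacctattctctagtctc
Mertk intron 4, higher, chr2:128745836-128746036: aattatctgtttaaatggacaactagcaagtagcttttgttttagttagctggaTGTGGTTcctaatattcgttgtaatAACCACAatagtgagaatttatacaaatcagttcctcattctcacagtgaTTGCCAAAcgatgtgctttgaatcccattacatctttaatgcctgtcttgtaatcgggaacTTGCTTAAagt
Mertk intron 15, IRF8KO-specific, chr2:128787878-128788078: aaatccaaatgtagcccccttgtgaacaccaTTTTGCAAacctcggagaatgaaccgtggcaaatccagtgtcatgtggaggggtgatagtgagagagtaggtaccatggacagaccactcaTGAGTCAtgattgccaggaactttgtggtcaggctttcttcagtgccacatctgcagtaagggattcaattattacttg

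Tyro3, the TAM receptor known mainly from neurons, spans chr2:119797733-119818104 on the plus strand and had the fewest regions of the 5 genes. No region overlapped its main start, and the one 662 bp downstream, chr2:119798277-119798430, had weak peaks in the IRF8KO libraries only (0.152 and 0.106), of which that of replicate 1 passed −log10 q of 2. The region whose edge was nearest to any of its annotated starts, chr2:119801150-119801412 in intron 2, had 0.618 and 0.450 in WT and 0.343 and 0.453 in IRF8KO. IRF8KO replicate 2 exceeded WT replicate 2 slightly, so the groups overlapped, with a log2 ratio of -0.42. The highest region of the window, chr2:119787209-119787884, had 0.980 and 1.12 in WT and 0.698 and 1.01 in IRF8KO. It belongs to the start of the neighbouring gene Rpap1, whose product binds RNA polymerase II, and its groups overlapped, though both IRF8KO libraries were lower with summed summits (-0.38). It lies across the edge of the window.

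**Figure D3:**
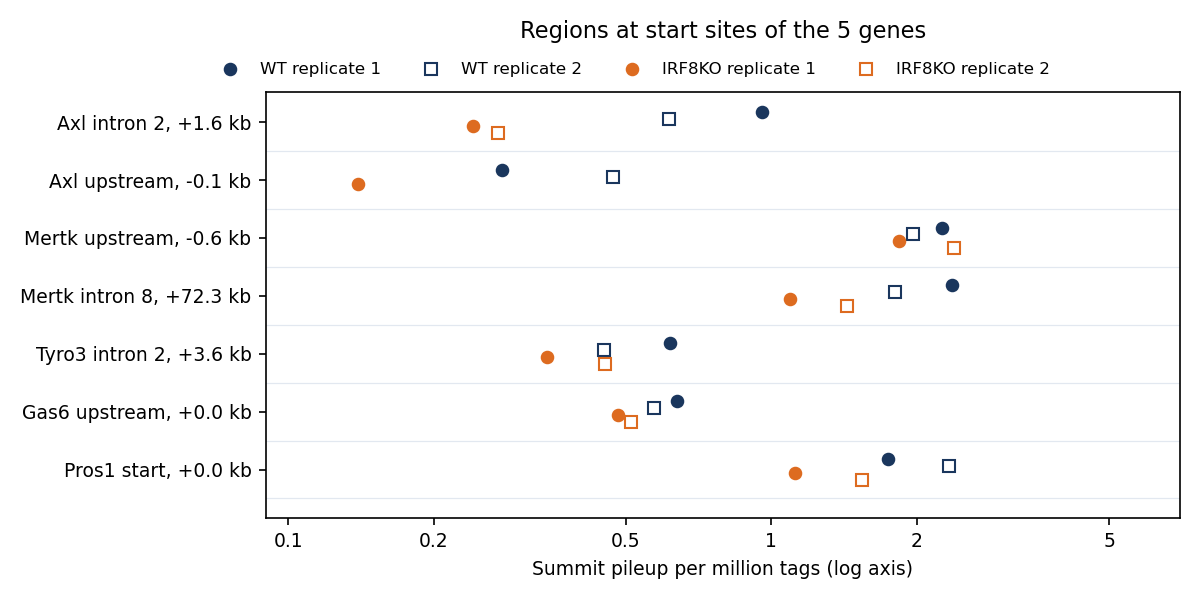
Summit pileup per 1000000 tags (log axis) in each library for the regions at annotated start sites of the 5 genes, with the distance of the summit from the main gene start. The Mertk start (1.84 to 2.39) and the Tyro3 region overlap between genotypes, the Axl internal start and the Mertk intron 8 start do not, and IRF8KO replicate 2 has no point at the main Axl start because no peak is listed there.

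Gas6, the ligand of all 3 receptors, lies on the minus strand at chr8:13465374-13494490. Its start region, chr8:13494137-13494679, had 0.639 and 0.573 in WT and 0.482 and 0.513 in IRF8KO. Both IRF8KO libraries were lower, by a log2 ratio of -0.28 that equals the genome-wide median, and it became 0.038 with overlapping groups under median scaling. Intron 2 again held both directions. At chr8:13493236-13493712 the values were 0.682 and 0.491 in WT and 0.165 and 0.438 in IRF8KO, a log2 ratio of -0.96, which was -0.42 without IRF8KO replicate 1 and -1.83 without IRF8KO replicate 2. At chr8:13492249-13492527 they were 0.490 and 0.470 in WT and 0.558 and 1.27 in IRF8KO. That log2 ratio of 0.93 rested on IRF8KO replicate 2 and was 0.22 without it.

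The highest Gas6 region, chr8:13503891-13504613, lay upstream (-9.93 kb from the start), across the edge of the window. It had 3.34 and 2.39 in WT and 3.82 and 4.44 in IRF8KO, higher in both, with a log2 ratio of 0.53. By fold enrichment the direction turned, to -0.17 with both IRF8KO libraries lower. Of the 8 Gas6 regions with a ratio, 3 were lower (37.5%, near the 37.1% genome-wide), 2 higher (25%, against 11.9%) and 3 overlapped. Their median was -0.01. Under median scaling 1 was lower and 5 higher, against 29.7% and 29.5% genome-wide. Without IRF8KO replicate 1, 5 were higher, where 33.9% were higher genome-wide. Without IRF8KO replicate 2, 5 were lower, where 74.2% were lower genome-wide.

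Pros1 encodes protein S, a ligand of Mertk and Tyro3 that also acts as an anticoagulant cofactor in blood, and spans chr16:62854307-62929346 on the plus strand. Its start region, chr16:62854110-62854737, had 1.75 and 2.33 in WT and 1.12 and 1.54 in IRF8KO. Both mutant libraries lay below both WT libraries and the means were 2.04 ± 0.414 and 1.33 ± 0.299 (SD, n = 2 each), a log2 ratio of -0.62. The groups overlapped under median scaling (-0.36) and by fold enrichment (0.011), and not with summed summits (-0.47).

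Beside the start, 2 intron 1 regions of Pros1 were lower. At chr16:62856406-62856617 the values were 2.07 and 1.55 in WT and 0.432 and 1.19 in IRF8KO, and at chr16:62857594-62857846 they were 2.11 and 1.98 in WT and 0.596 and 1.18 in IRF8KO. Neither overlapped, and IRF8KO replicate 1 was the lower mutant library in both. The log2 ratios were -1.16 (-2.07 without IRF8KO replicate 2, -0.60 without IRF8KO replicate 1 and -0.59 by fold enrichment) and -1.21 (-0.55 by fold enrichment).

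At the other end of Pros1, chr16:62921981-62922088 in intron 12 was IRF8KO-specific, with 0.178 and 0.211. Downstream, chr16:62937625-62937779 had 0.170 and 0.143 in WT and 0.216 and 0.544 in IRF8KO, a log2 ratio of 1.28, the largest rise of the 40 regions, which was 0.46 without IRF8KO replicate 2. The highest region of the window, chr16:62846572-62847301, lies at the promoter of Arl13b, a gene for a ciliary GTPase, and had 9.95 and 8.28 in WT and 7.40 and 10.8 in IRF8KO, with overlapping groups, though both IRF8KO libraries were higher under median scaling (0.28). The intron 1 window printed here is shown because it combines an ETS-IRF match, GGAAGTGAAA, with a separate PU.1 match, both in capitals.
Pros1 intron 1, lower, chr16:62857573-62857773: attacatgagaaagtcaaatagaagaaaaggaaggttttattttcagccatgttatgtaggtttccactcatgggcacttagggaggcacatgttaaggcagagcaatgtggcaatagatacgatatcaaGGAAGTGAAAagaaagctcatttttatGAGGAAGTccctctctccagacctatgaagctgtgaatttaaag

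**Figure D4:**
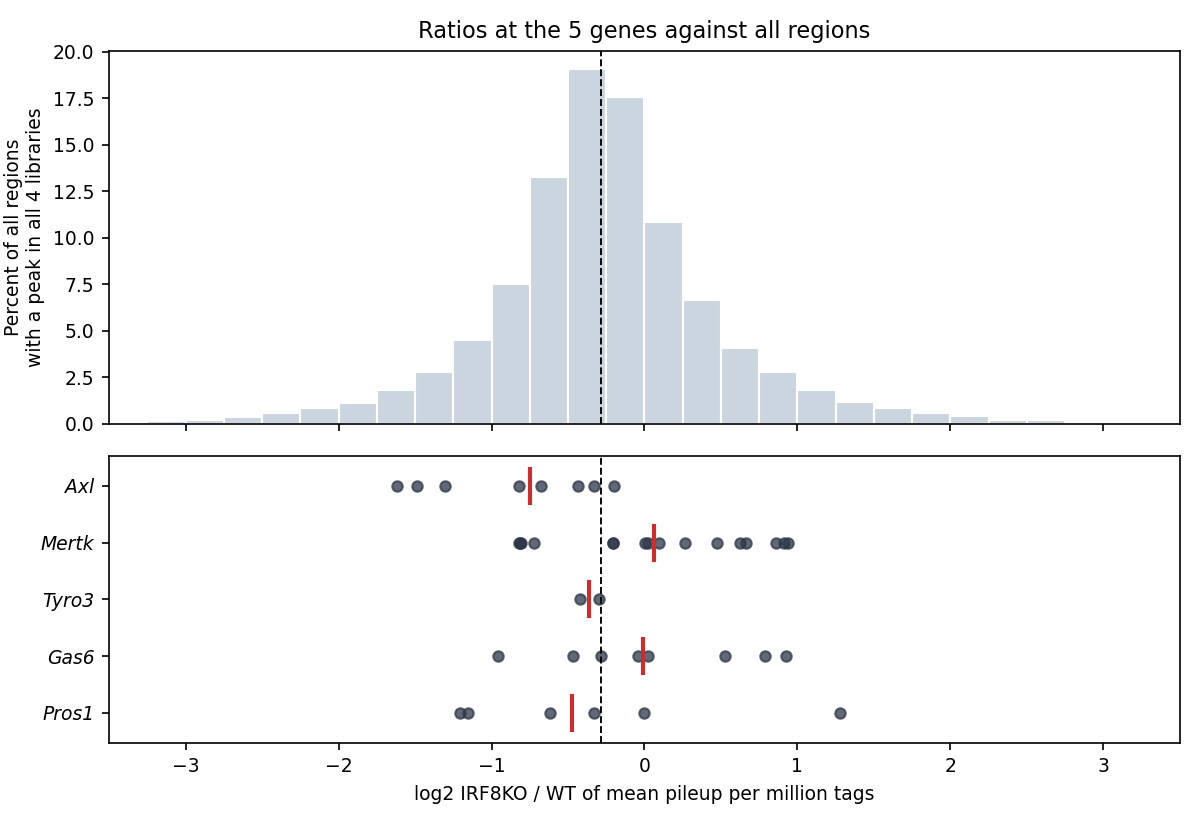
Upper panel, share of all 58550 regions with a peak in all 4 libraries (percent) by log2 ratio of IRF8KO over WT mean pileup per 1000000 tags; lower panel, the 40 regions of the 5 genes on the same axis, with the median of each gene as a red bar and the genome-wide median (-0.28) dashed. The Axl median (-0.75) lies to the left of the dashed line and the Mertk median (0.06) to its right.

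The regions were also counted by whether another gene starts beside them. Of 7 regions with a ratio within 1 kb of another gene's start, 0 were lower and 0 higher in both IRF8KO libraries, with a median log2 ratio of -0.20 (3 were higher under median scaling). Of the 33 others, 17 were lower (51.5%, against 37.1% genome-wide), 8 higher (24.2%, against 11.9%) and 8 overlapped. Under median scaling 13 of the 33 were lower and 14 higher, against 29.7% and 29.5% genome-wide. These genome-wide shares are over all regions, from which regions near starts were not removed, so the sets are unlike. Without that removal, the shares at the 5 genes were 42.5% lower and 20% higher. Of the 13 regions that were at least 1.5-fold lower, 11 stayed below WT in both IRF8KO libraries under median scaling, fold enrichment and summed summits alike, the exceptions being the intron 6 region of Axl and the start of Pros1, and all 6 of the higher ones stayed above. The 36 regions without a ratio were the 7 genotype-specific ones and 29 that had a peak in 1 library (13), 2 libraries (7) or 3 libraries (9), at levels of 0.106 to 0.873. In addition 57 sites held only weak peaks, below −log10 q of 2, and 50 of these had a peak in 1 library.

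The window of 10 kb set which regions counted. Of the 3 regions across its edge, the Hnrnpul1 region at Axl was lower in both IRF8KO libraries, the upstream region at Gas6 was higher and the Rpap1 region at Tyro3 overlapped. The nearest region beyond each edge had a deposited peak in all 4 libraries at 6 of the 10 edges. Both IRF8KO libraries were lower at 2 of these. At Mertk, 4502 bp beyond the 3′ edge, chr2:128817396-128818656 had 2.53 and 2.27 in WT and 1.37 and 2.07 in IRF8KO, a log2 ratio of -0.48. At Pros1, 10063 bp beyond the 5′ edge, chr16:62834045-62834244 had 0.341 and 0.205 in WT and 0.140 and 0.166 in IRF8KO, a log2 ratio of -0.83. The genotypes overlapped at the other 4, where the log2 ratio ran from -0.48 (Mertk, 1333 bp beyond the 5′ edge) to 0.70 (Axl, 6750 bp beyond the 3′ edge). Of the 4 edges without a peak in every library, the Gas6 region 2462 bp out had peaks in WT replicate 2 (0.286) and in both IRF8KO libraries (0.520 and 0.755), and each of the other 3 had a peak in 1 library.

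Sequence matches were counted in the 201 bases around the summit of each region on both strands, for 11 motifs (the others being MAF, TGCTGAC, the E-box CACGTG, and DR4, a paired nuclear receptor element with 0 matches at the 5 genes and 0.0894% of all windows). PU.1 and ETS-IRF share GGAA and DR4 holds half-sites, so matches can overlap. The ETS-IRF composite occurred in 3 of 76 windows, against 4.30% of all windows, and these 3 were lower in IRF8KO: the intron 1 region of Mertk next to the WT-specific one, its intron 8 start (GGAAACGAAA, minus strand, chr2:128771316-128771325) and the printed intron 1 region of Pros1. None of the 6 higher or 6 IRF8KO-specific regions held one. Genome-wide the composite was in 8.07% of regions at least 1.5-fold lower, 2.42% of those at least 1.5-fold higher and 1.83% of IRF8KO-specific regions. At the last 2 shares, its absence from 6 regions tells little.

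No Axl window held the ETS-IRF composite, while the intron 2 region held the ISRE match GAAAACGAAA at chr7:25787136-25787145. A second Axl ISRE match, GAAAAGGAAA at chr7:25781536-25781545 (minus strand), lay in chr7:25781464-25781712, which had peaks in the IRF8KO libraries only (0.178 and 0.393). ISRE matches were in 3 of 76 windows, against 3.13% of all. PU.1 matches were in 10 (7.74% of all windows), CEBP in 12 (9.54%), AP-1 in 3 (8.12%), RUNX in 6 (5.58%), MAF in 8 (5.02%), the E-box in 6 (4.09%), STAT in 6 (5.92%) and the half-site in 10 (13.1%). Among the 13 lower regions 0 held AP-1, CEBP or RUNX matches, against 6.43%, 7.71% and 5.11% of all regions at least 1.5-fold lower. Among the 6 IRF8KO-specific ones 3 held CEBP and 2 AP-1, both of the latter in Mertk, against 20.6% and 18.9% of all IRF8KO-specific regions. The 1 WT-specific region, also in Mertk, held both an AP-1 and a CEBP match. These are letters in windows and say nothing of what was bound.

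For the rest of the uptake pathway, 39 genes from a list of other phosphatidylserine receptors, engulfment signalling, sheddases, ligand carboxylation, TAM feedback and lipid handling were counted over 609 regions. WT-specific regions made up 28 of these (4.60%, against 5.58% genome-wide) and IRF8KO-specific regions 13 (2.13%, against 3.86%). Of 308 regions with a ratio, 111 were lower (36.0%) and 51 higher (16.6%), with a median of -0.23, beside 37.1%, 11.9% and -0.28 genome-wide. Under median scaling the split was 28.9% and 35.1%.

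Among the phosphatidylserine receptors, Timd4, which encodes TIM-4, held 4 WT-specific regions of 10, and its promoter level was 0.319 and 0.389 in WT with no deposited peak in IRF8KO. The integrin subunit gene Itgav held 3 WT-specific regions of 21 and Itgb3 held 2 IRF8KO-specific ones of 14. Cd36, a scavenger receptor gene, had 1 WT-specific and 2 IRF8KO-specific regions of 17, and 6 of its 8 regions with a ratio were higher in IRF8KO, a median of 0.98. Over the 14 genes of the list of receptors and bridging molecules, 4.33% of 208 regions were WT-specific and 2.40% IRF8KO-specific, against 5.58% and 3.86% genome-wide. In engulfment signalling, Elmo1, an activator of Rac with DOCK proteins, held 6 WT-specific regions and 1 IRF8KO-specific region among 92. Over the 8 genes of that list, 5.29% of 189 regions were WT-specific, near the genome-wide share, and 1.06% IRF8KO-specific.

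Adam10, a protease gene, had 2 WT-specific regions of 17, and Adam17, the sheddase of Mertk, had 0 of either kind among 11. With 5.58% of all regions WT-specific genome-wide, counts this small show no contrast between the genes. Of the genes for vitamin K-dependent carboxylation, which the ligands need, Ggcx had 1 WT-specific region of 10, and Vkorc1 and Vkorc1l1 had 0 of 2 and 5. Of 5 feedback genes only Socs3, a suppressor of cytokine signalling, held a genotype-specific region, 1 of 10, in IRF8KO. In lipid handling, the cholesterol exporter gene Abcg1 held 3 WT-specific regions of 21 and Abca1 held 2 IRF8KO-specific regions of 29. Of the same list, Ppard had 2 WT-specific and 1 IRF8KO-specific regions of 25, Pparg 1 of each kind of 11, and Rxra 1 IRF8KO-specific region of 33. Over its 7 genes 4.51% of 133 regions were WT-specific and 3.76% IRF8KO-specific, near the 5.58% and 3.86% genome-wide.

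Promoters of like pattern were sought over the 4 libraries, taking for each gene the highest summit within 1 kb of any annotated start and the distance in log2 of level plus 0.05. Nearest to Axl, whose value came from the internal start, were Heg1 (distance 0.246), Fzd9 (0.262) and Cnmd (0.271). Heg1, for example, had 0.831 and 0.614 in WT and 0.216 and 0.257 in IRF8KO. Nearest to Mertk were Zkscan17 (0.0821), Pgrmc1 (0.102) and Plpp5 (0.111). The Mertk value of WT replicate 1 (2.36) came from the intron 8 start, and those of the other libraries from the main start.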

How the data were processed

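Per the labels, nuclei of sorted microglia were tagmented with a commercial kit and the libraries amplified with 12 PCR cycles. The submitters' processing notes name the mm10 build, bcl2fastq, Bowtie2, MACS2 and deepTools. Peak calling was done by the authors library by library (MACS 2.1.1.20160309, p cutoff 0.01, no control, per the file headers), with cut sites moved by 37 bp and extended to 73 bp, which centres the Tn5 cut. In the deposited lists, pileup is an unscaled signal, fold enrichment a ratio to local background and q a −log10 value. Although the headers say q was left out, its column was filled and was used.

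Peaks were reduced to distinct intervals on the autosomes and X. Those with −log10 q of 2 or more (83996 to 98863 a library) were merged over the 4 libraries into regions, and each library's level was its highest deposited pileup in a region, per 1000000 tags in the header (lowest deposited 0.102 to 0.128). A genotype-specific region had such peaks in both libraries of a genotype and no deposited peak in the others. Log2 ratios are of group means, over regions with a peak in all 4 libraries, and no test was run. Named were, at each gene, the regions that hold an annotated start (where none does, the one with the nearest edge within 1 kb), genotype-specific or highest regions, and those without overlap differing 1.5-fold or more. Pathway genes named hold a genotype-specific region, apart from Adam17, Vkorc1 and Vkorc1l1, which were named after their counts were seen. Of the 19 pathway genes with such a region, Stab1, Stab2, Gulp1, Dock1, Rac1 and Vav1 are not described. The members and lists were chosen with earlier results of these data known. One marker list is not reported here. Python 3.11.15 with pandas 2.3.3 and pysam 0.24.0 was used, and the region and class code was tested on simulated data. Alternatives were other q thresholds, overlaps, windows and scalings, and leaving out each library. Counts per gene under them were added after seeing the data.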

Additional observations from a re-analysis of the deposited data

How the results depend on the processing

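No paired analysis was possible because the values come from peak lists described without a test, and the shared replicate numbers are not stated to pair the libraries. The 1 WT-specific region became 0 where −log10 q had to reach 5, 2 when every listed peak counted, 2 with 50 kb on either side, and 3 to 6 when 1 library was left out. The 6 IRF8KO-specific regions became 2 at that threshold, 11 with all deposited peaks, and 6 to 12 with 1 library left out. Regions present at −log10 q of 2 or more in all 4 libraries numbered 33, 50 with 50 kb on either side, and 33 to 38 with 1 library left out. The 17 regions lower in both IRF8KO libraries numbered 20 to 28 with 1 library left out, the 28 of 42 without IRF8KO replicate 2 (74.2% lower genome-wide), while the 8 higher ones numbered 17 under median scaling and 8 to 17 with 1 library left out (13 of 43 without WT replicate 1, and 17 of 43 without IRF8KO replicate 1, 33.9% genome-wide). The genome-wide higher share without WT replicate 1 was 23.96%. With 1 library left out, fewer values have to clear each other. Fold enrichment split all regions 30.6% lower and 18.2% higher.

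Log2 ratios reversed in 3 of 147 values for the 21 named regions without overlap: the Gas6 start to 0.038 under median scaling, and under fold enrichment the upstream Gas6 region to -0.17 and the Pros1 start to 0.011. The cause was not tested. Of the others, 111 stayed within the spread between replicates and 33 moved beyond it in the same direction. Where a library was left out, that spread came from the same replicates, so a move beyond it was limited in advance. The count of 111 is therefore no measure of stability. Weak peaks limit the genotype-specific regions: pileups of 12 to 29 leave presence and absence close to the calling limit.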
